A study of Arabidopsis thaliana with 23 samples.

Results

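Gene counts from RNA-seq were analysed for whole seedlings of Arabidopsis thaliana ecotype Col-0 that had been kept on rac-GR24 or on its solvent, DMSO. These 6 libraries, of 23 samples in the series, formed 2 groups of 3. In the rac-GR24 group the seedlings grew for 7 days on plates with 2.5 µM rac-GR24, and in the DMSO group they grew for the same 7 days on plates with DMSO. Both groups shared the Col-0 genotype, the Murashige and Skoog agar with sucrose, the long days and the extraction of total RNA with TRIzol. Every gene of the table entered the analysis, without choice by value, and genes were described by family and by metabolic, transport or developmental role. The lists and their members were chosen with earlier results of these data known, and families hold only genes found by symbol. Their counts are therefore no unselected survey.

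Strigolactones are carotenoid-derived hormones that restrain shoot branching and shape root growth. They bind the receptor D14, which acts with the F-box protein MAX2 to degrade repressor proteins of the SMXL family, and the related receptor KAI2 works with MAX2 on the repressor SMAX1 in the response to smoke-derived karrikins. rac-GR24 is a synthetic racemic strigolactone analogue whose mirror-image forms act through both receptors, so the treatment does not separate these routes.

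The table held 32224 genes, and the libraries held 41921608, 37955370 and 33296199 counts on rac-GR24, against 34334085, 31209344 and 44442493 counts on DMSO. After a filter on low counts, 21063 genes were tested with edgeR's quasi-likelihood test, and "rose" or "fell" below means a Benjamini-Hochberg adjusted p under 0.05. By this rule 2604 genes (12.4%) rose and 2456 genes (11.7%) fell on rac-GR24, or 24.0% of those tested. A change of at least 2-fold was found in 429 genes that rose (2.04%) and 339 that fell (1.61%), and one of at least 4-fold in 73 (0.347%) and 74 (0.351%). Most changes were small, with a median of 1.43-fold among the genes that rose, while the genes that fell had a median DMSO level 1.36 times the rac-GR24 level. All 3 rac-GR24 libraries lay above all 3 DMSO libraries for 4093 genes (19.4%) and below them for 4115 (19.5%). The first principal component held 54.7% of the variance and separated the groups, and the common biological coefficient of variation was 8.92%. Nothing in the labels states that replicates were grown as separate plates or plants. The p-values therefore cover only the spread among these libraries, and that spread may be technical. Levels are given as CPM, counts scaled to a common library size, per library in the order of the replicate numbers, and log2 changes are rac-GR24 over DMSO with a standard error (SE).

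Among genes with a mean of at least 1 CPM in the higher group and groups that did not overlap, the largest rises included a gene of sugar cleavage, a beta-glucosidase, a defensin and a pigment-modifying enzyme, and the largest falls included a purple acid phosphatase, a gibberellin oxidase, an ethylene precursor enzyme and auxin-responsive genes. CWINV5, of the cell-wall invertase family that splits sucrose outside the cell (chromosome 3, 4528362 to 4530713 on TAIR10), had 12.6, 12.8 and 13.8 CPM on rac-GR24, against 0.0898, 0.129 and 0.133 CPM on DMSO. The groups were far apart, and its log2 change was 6.74 ± 0.21 (edgeR adjusted p = 9.8e-11). BGLU47, a beta-glucosidase, had 51.3, 49.8 and 52.5 CPM on rac-GR24, against 3.02, 4.45 and 4.75 CPM on DMSO, a log2 change of 3.64 ± 0.12 (edgeR adjusted p = 1.1e-10). UF3GT, which encodes the glycosyltransferase UGT79B1 of anthocyanin modification, had 18.3, 16.9 and 17.5 CPM on rac-GR24 and 1.855, 1.805 and 2.697 CPM on DMSO, with a log2 change of 3.03 ± 0.14 (edgeR adjusted p = 4.2e-09). Low levels underlay several of the other large changes. LCR67, a defensin gene also named PDF1.1, had 2.22, 1.41 and 2.50 CPM on rac-GR24 and 0.179, 0.193 and 0.177 CPM on DMSO.

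Some of the largest rises had almost no counts on DMSO. AT1G30250, a gene with no symbol in the sources used here, had 288 counts over the rac-GR24 libraries and 0 over the DMSO libraries, which is at least 92.6-fold higher when the DMSO sum is set to a floor of 3 counts. BRC1, the branching regulator named in the title of the series, had 513 counts on rac-GR24 and 2 on DMSO, which after depth correction is a ratio of 247 (95% counting interval from 68.1 to 2050). Its 3 rac-GR24 libraries held 6.59, 3.66 and 2.83 CPM, while its DMSO libraries held 0, 0 and 0.0442 CPM, so that both DMSO counts came from replicate 3. Without that library the fitted log2 change was 10.29, beside 7.67 with all libraries. Such intervals and floors cover counting error only, and they treat each count as independent. Since 69.0% to 71.8% of counts between 1 and 20 were even, both mates of a pair may have been counted. With halved counts the interval of BRC1 ran from 43.9 to 9789 and the bound of AT1G30250 was 46.3-fold. AT3G24420 had 41.8, 46.1 and 43.6 CPM on rac-GR24 and 2.57, 3.58 and 2.25 CPM on DMSO, a log2 change of 3.99 ± 0.13. AT5G56840 had 14.3, 14.4 and 14.1 CPM on rac-GR24 and 2.24, 1.03 and 0.973 CPM on DMSO. AT4G21930, AT5G62730 and AT2G33350 had log2 changes of 3.86, 3.39 and 3.38, and that of AT5G62730 was 2.79 without DMSO replicate 3. Other large changes rested partly on 1 library. The log2 change of LTP4, a lipid transfer protein gene, was 3.48 and became 8.18 without DMSO replicate 3, and its call was lost with DESeq2's test (adjusted p = 0.08). That of AT1G68250 was 3.82 and ran to 3.07 without rac-GR24 replicate 1, to 4.51 without DMSO replicate 1 and to 3.11 without DMSO replicate 3. AT2G34360 had 5.15 with all libraries, 5.88 without DMSO replicate 1 and 4.44 without DMSO replicate 3.

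Among the falls, AT5G44440 had 0, 0.262 and 0.121 CPM on rac-GR24, against 16.9, 14.8 and 19.1 CPM on DMSO, so the groups were wide apart. Its log2 change was -7.07 ± 0.32 (edgeR adjusted p = 2.7e-09), and leaving out rac-GR24 replicate 1 or 2 gave -6.42 or -8.23. ACS4, an isoform of the ACC synthase that makes the ethylene precursor, had 3.47, 2.46 and 2.17 CPM on rac-GR24, against 25.6, 22.7 and 24.4 CPM on DMSO, a log2 change of -3.15 ± 0.14 (edgeR adjusted p = 2.1e-09). IAA6, an Aux/IAA repressor gene, had 0.0945, 0.157 and 0.181 CPM on rac-GR24 and 1.496, 2.13 and 1.44 CPM on DMSO. GA2OX7, which inactivates gibberellin precursors, had 0.0473, 0.105 and 0.452 CPM on rac-GR24 and 2.45, 1.23 and 1.95 CPM on DMSO. Its log2 change was -3.29, or -4.59 with rac-GR24 replicate 3 left out. AT3G60650 had 2 counts on rac-GR24 and 294 on DMSO, and the DMSO level was 152 times the rac-GR24 level (95% counting interval from 41.8 to 1260, or from 26.9 to 6061 with halved counts). Both rac-GR24 counts were in replicate 1, and its fitted log2 change of -6.99 was -9.59 with that library left out. AT1G31690, AT1G29490, AT4G20230 and P1R3 had log2 changes of -4.97, -3.34, -3.11 and -3.01. AT5G19890 was at -5.36, or -8.83 with rac-GR24 replicate 1 left out. AT5G50335 was among the more abundant of the large falls, with 3.00, 1.88 and 2.65 CPM on rac-GR24 and 28.2, 23.5 and 26.0 CPM on DMSO.

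**Figure D1:**
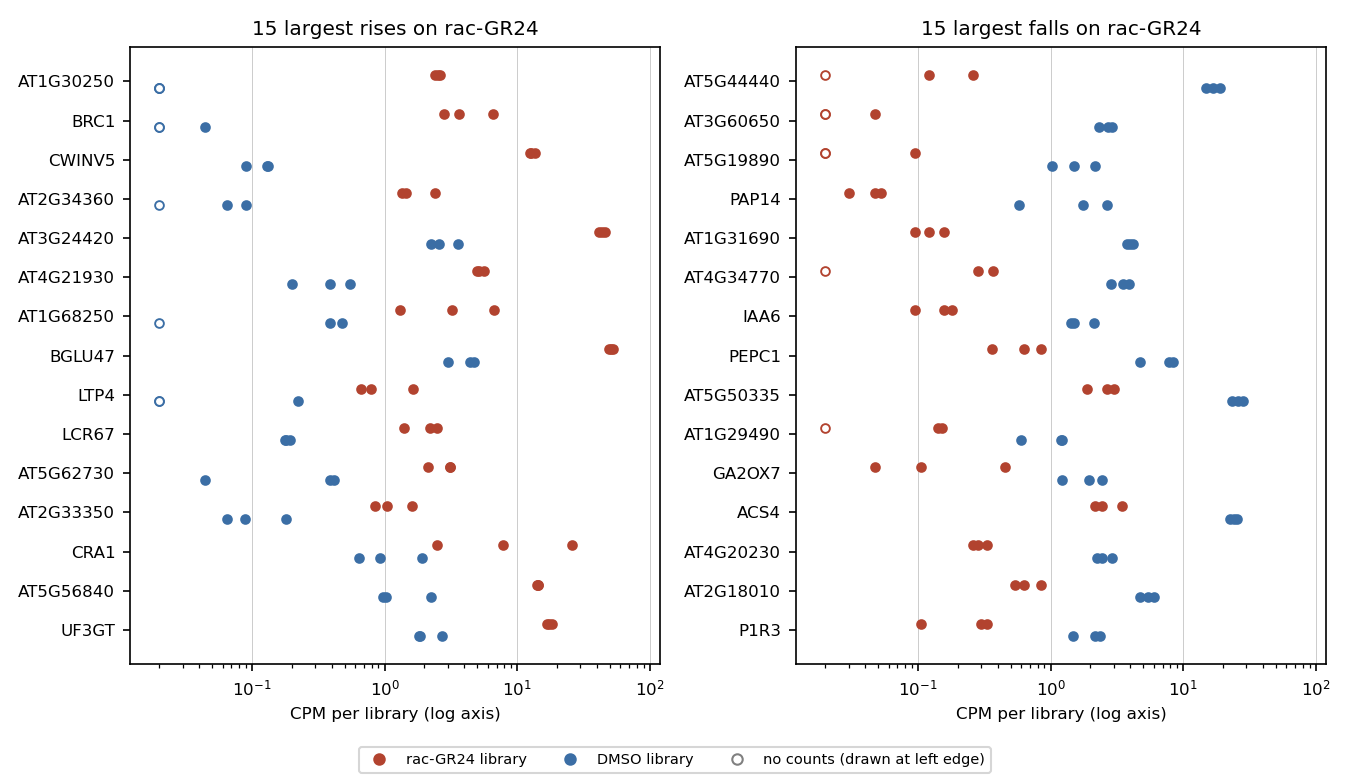
CPM per library on a log axis for the 15 genes with the largest rises (left) and the 15 with the largest falls (right) among called genes with a mean of at least 1 CPM in the higher group, 3 points per group in each row, with open circles for libraries that had no counts. The groups do not overlap in any row, which was a condition of the choice, and the rac-GR24 points of CWINV5 lie near 13 CPM, against about 0.1 CPM on DMSO.

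Of 13 tested genes of strigolactone and karrikin signalling, 7 rose and 1 fell. The repressor genes SMXL6 (AT1G07200), SMXL7 (AT2G29970) and SMXL2 (AT4G30350) rose by log2 changes of 1.36, 1.03 and 1.25, and the response gene KUF1, an F-box gene, by 1.33 ± 0.11. The receptor gene KAI2, the receptor gene D14 (AT3G03990) and MAX2 did not pass the test, with log2 changes of 0.07, 0.09 and 0.18. The single fall, of SMXL4 (AT4G29920), by 0.38 on the log2 scale, lost its call when any library other than rac-GR24 replicate 2 was left out, at log2 changes from -0.40 to -0.29.

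Transcription factor families moved unevenly. Of 78 tested NAC genes 20 rose (25.6%) and 6 fell (7.69%), with a median log2 change of 0.23, beside -0.002 over all genes tested. RD26, a NAC gene induced by drought and abscisic acid, had 38.4, 38.7 and 42.9 CPM on rac-GR24, against 10.9, 12.4 and 11.1 CPM on DMSO, a 3.49-fold rise. NAC6, a regulator of leaf senescence also called ORE1, rose by 1.20 on the log2 scale, NAC047 by 1.19 and NAC102 by 0.81. Of the 6 NAC genes that fell, NAC088 had a log2 change of -1.91, NAC101, a driver of vessel formation, -1.48, and NAC007 -0.83. WRKY genes, many of them defence regulators, rose in 15 (24.2%) and fell in 6 (9.68%) of 62, and the number that rose was 9 without rac-GR24 replicate 3. WRKY48 rose by 1.08, WRKY6 by 0.89 and WRKY65 by 0.65 on the log2 scale, and WRKY18 fell by 0.61. R2R3-MYB genes rose in 18 (19.4%) and fell in 8 (8.60%) of 93, nearer to the shares over all genes tested, 12.4% and 11.7%, and those that rose included MYB50, with a 2.49-fold rise, and MYB74, with a log2 change of 1.21.

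In the TCP and Aux/IAA families more genes fell than rose. TCP genes control cell division and organ growth, and 1 of 19 rose, which was BRC1, while 8 (42.1%) fell, including TCP11, TCP2, TCP15 and TCP24 with log2 changes of -0.78, -0.59, -0.50 and -0.41. Aux/IAA genes encode repressors that auxin both induces and destabilises, and 14 of 26 (53.8%) fell while 3 rose. IAA19 had 1.89, 1.83 and 1.93 CPM on rac-GR24, against 6.91, 8.12 and 8.98 CPM on DMSO, a log2 change of -2.09 ± 0.16, and IAA29, IAA5 and IAA1 changed by -1.69, -1.63 and -1.15. Homeodomain genes moved both ways, with 16 of 72 higher (22.2%) and 14 lower (19.4%). The KNOX genes KNAT3 and KNAT4 rose by 0.72 and 0.63 on the log2 scale and HB-7 (AT2G46680), a gene of the water-deficit response, by 1.02, while HB31, HB25 and HB-8, a vascular regulator, changed by -1.33, -0.76 and -0.62.

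Over all factor families, and under the same conditions on level and overlap, the largest rises after BRC1 included those of LBD33, a LOB-domain gene, BZS1 (also named BBX20), TT8, a bHLH activator of anthocyanin genes, and AT2G18550 (HB21), a homeodomain gene. LBD33 had 3.497, 3.29 and 3.41 CPM on rac-GR24 and 0.359, 0.838 and 0.398 CPM on DMSO, a 6.51-fold rise. BZS1 had 12.7, 13.1 and 13.4 CPM on rac-GR24 and 2.48, 1.71 and 2.74 CPM on DMSO, and TT8 had 8.79, 7.17 and 8.17 CPM on rac-GR24 and 2.04, 1.51 and 1.52 CPM on DMSO. Neither gene's groups overlapped. AT2G18550 was lower in level, at 1.82, 1.75 and 1.21 CPM on rac-GR24 and 0.179, 0.516 and 0.309 CPM on DMSO. Among the falls, SEP3, a floral MADS-box gene, had 1.99, 2.25 and 1.63 CPM on rac-GR24, against 7.72, 7.54 and 5.57 CPM on DMSO, a log2 change of -1.82 ± 0.19. bHLH071 had 9.26, 10.8 and 9.74 CPM on rac-GR24, against 32.3, 30.4 and 21.9 CPM on DMSO, so that the mean DMSO level was 2.83 times that on rac-GR24. The rise of WRKY71 was 2.18 with all libraries and 5.08 without DMSO replicate 3, and it lost its call without rac-GR24 replicate 2 or 3, without DMSO replicate 1 or 2, at 1.65 to 2.06, and with DESeq2's test (adjusted p = 0.27).

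More genes of the phosphate starvation response fell than rose. When phosphate is scarce, plants raise phosphatases, swap membrane phospholipids for galactolipids and sulfolipids, and produce SPX proteins that sense phosphate. Of 26 tested members of the list, 12 fell (46.2%) and 4 rose (15.4%), and 7 of the falls were at least 2-fold. The median log2 change was -0.25, beside -0.002 over all genes.

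Lipid enzymes and phosphatases were among these falls. MGDC, also named MGD3, makes galactolipid under phosphate shortage and had 0.520, 0.497 and 0.844 CPM on rac-GR24, against 4.55, 6.54 and 3.36 CPM on DMSO, a log2 change of -2.96 ± 0.30 (edgeR adjusted p = 6.7e-06). MGD2, its close relative, had 4.25, 3.84 and 4.16 CPM on rac-GR24 and 13.8, 13.99 and 8.64 CPM on DMSO, a log2 change of -1.56 ± 0.17. SQD2, which completes sulfolipid, had 76.7, 70.3 and 69.4 CPM on rac-GR24, against 208, 199 and 139 CPM on DMSO, a log2 change of -1.33 ± 0.12 (edgeR adjusted p = 1.6e-06). The groups of all 3 genes lay apart, and DMSO replicate 3 was the lowest of the DMSO libraries. SQD1, the step before SQD2, fell less, with a log2 change of -0.76. PS2 (AT1G73010), a phosphatase gene, had 3.78, 4.58 and 4.70 CPM on rac-GR24 and 22.0, 25.01 and 11.2 CPM on DMSO, a log2 change of -2.15 ± 0.23. PAP17, a purple acid phosphatase, had 31.5, 31.9 and 28.9 CPM on rac-GR24 and 83.3, 81.5 and 59.0 CPM on DMSO, a log2 change of -1.28 ± 0.11. Outside the list and named among the largest falls, PAP14 had 0.0473, 0.0523 and 0.0301 CPM on rac-GR24 and 1.76, 2.67 and 0.575 CPM on DMSO, and PEPC1, a phosphatase of phospholipid head groups, had 0.851, 0.628 and 0.362 CPM on rac-GR24 and 7.78, 8.44 and 4.73 CPM on DMSO.

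Of the regulators, SPX1 had 42.3, 41.8 and 42.3 CPM on rac-GR24 and 83.4, 73.0 and 65.2 CPM on DMSO, a log2 change of -0.81, and SPX3 fell by 1.79 at much lower levels. IPS1, a non-coding RNA that binds miR399, had 0.189, 0.157 and 0.241 CPM on rac-GR24 and 0.658, 1.55 and 1.105 CPM on DMSO, a log2 change of -2.48 ± 0.46. The list also held 4 genes that rose. PHT1;1, a phosphate importer, had 282, 273 and 291 CPM on rac-GR24, against 216, 195 and 179 CPM on DMSO, a log2 change of 0.52 ± 0.07 (edgeR adjusted p = 0.0001). NPC4, a phospholipase, rose by 0.69, PHO2, which limits phosphate uptake, by 0.27 and PHO1, which loads phosphate into the xylem, by 0.25 on the log2 scale. PHO1 lost its call without DMSO replicate 2, at 0.21. The importers PHT1;2 and PHT1;4 did not pass, with log2 changes of -0.98 and -0.21. In all 12 genes that fell the groups did not overlap, and in 11 of them DMSO replicate 3 was the lowest DMSO library.

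**Figure D2:**
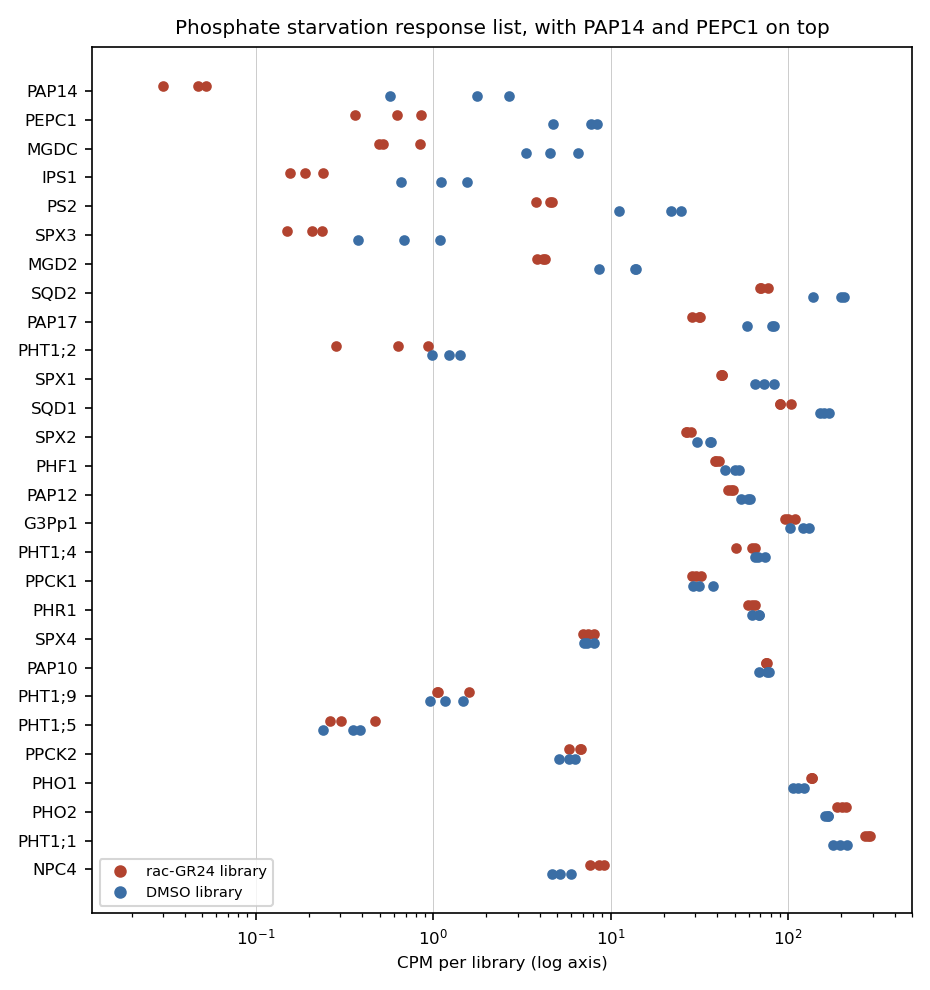
CPM per library on a log axis for the 26 tested genes of the phosphate starvation list, with PAP14 and PEPC1 in the top rows, 3 points per group. The rac-GR24 points lie left of the DMSO points in every row down to PAP12, and right of them for NPC4, PHT1;1, PHO2 and PHO1.

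In several transporter families more genes rose than fell. Of 68 amino acid transporter genes 26 rose (38.2%) and 4 fell (5.88%). UMAMIT20, of a family of bidirectional amino acid facilitators, had 88.2, 82.9 and 81.8 CPM on rac-GR24, against 31.2, 32.4 and 30.3 CPM on DMSO, a log2 change of 1.43 ± 0.06. UMAMIT17 had 45.4, 41.3 and 42.7 CPM on rac-GR24 and 17.4, 14.02 and 16.0 CPM on DMSO, a log2 change of 1.45, and both genes' groups stood well apart. SIAR1, also named UMAMIT18, rose by 0.87 and the permease gene AAP4 by 0.77 on the log2 scale. Among the 4 that fell, WAT1, which exports auxin from the vacuole, had a log2 change of -0.45.

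ATP-binding cassette transporters of subfamily C, which load glutathione and other conjugates into vacuoles, rose in 8 and fell in 1 of 14. ABCC4 had 76.0, 73.1 and 66.0 CPM on rac-GR24 and 36.0, 36.5 and 35.5 CPM on DMSO, a log2 change of 1.00, and ABCC2, a vacuolar conjugate pump, rose by 0.69. ABCC9 was the one that fell, by 0.83. Subfamily G moved both ways, with 10 of 38 higher (26.3%) and 9 lower (23.7%). ABCG22, which limits water loss through stomata, had 373, 351 and 322 CPM on rac-GR24, against 60.4, 58.1 and 45.8 CPM on DMSO, a log2 change of 2.67 ± 0.10 (edgeR adjusted p = 2.5e-10). ABCG37, which exports auxin precursors and phenolics from roots, rose by 0.81, ABCG1, of suberin formation, by 0.76 and ABCG25, an abscisic acid exporter, by 0.63, while ABCG8, ABCG42 and ABCG5 changed by -1.66, -0.90 and -0.87. Of the MATE family of organic cation and citrate exporters, 8 genes were found by symbol and 7 of these were tested, of which 6 rose. FRD3, which releases citrate into the xylem for iron transport, rose by 0.91, ALF5 by 0.55, DTX35 by 0.49, AT4G29140 by 0.48, EDS5, which exports the salicylic acid precursor, by 0.43 and AT5G52050 by 0.85, the last losing its call without rac-GR24 replicate 3, at 0.75. The seventh, DTX1, was at -0.10 and did not pass.

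Metal transporters were more often higher than lower. Of 12 ZIP genes, which import zinc and iron, 5 rose (41.7%) and 1 fell (8.33%), beside 12.4% and 11.7% over all genes tested. IRT2 was at 1.35, ZIP3 at 0.99, ZIP1 at 0.73, IRT3 at 0.48 and AT1G10970 (ZIP4) at 0.44, with ZIP7 at -2.67. The main iron importer gene IRT1, at 0.31, did not pass, nor did ZIP9, at 0.82. Of 39 other metal transporter genes 15 rose (38.5%) and 2 fell (5.13%). AT3G25190, a vacuolar iron transporter-like gene (VTL5), had 44.5, 46.0 and 36.0 CPM on rac-GR24 and 16.6, 16.2 and 23.7 CPM on DMSO, a log2 change of 1.15, and HMA2, a zinc exporter, rose by 0.86 and NRAMP4, a vacuolar metal exporter, by 0.66. In the iron list, 8 of 18 rose and 2 fell. OPT3, of iron loading into the phloem, had 859, 796 and 855 CPM on rac-GR24 and 652, 592 and 498 CPM on DMSO, a log2 change of 0.53, NAS2, a nicotianamine synthase, rose 2.64-fold, and FRU, the master regulator of iron uptake also named FIT, rose by 0.60 on the log2 scale.

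Among water and auxin carriers more genes fell than rose. Plasma membrane aquaporins rose in 0 and fell in 6 of 13 (46.2%), and the number that fell was 3 without rac-GR24 replicate 1 and 3 without rac-GR24 replicate 3. Their log2 changes were modest, such as -0.44 for PIP2;8 and -0.29 for PIP2B. Of 6 vacuolar aquaporins, TIP2;3 (AT5G47450) had 9.26, 12.03 and 15.7 CPM on rac-GR24, against 66.5, 68.8 and 55.8 CPM on DMSO, a log2 change of -2.38 ± 0.14 (edgeR adjusted p = 4.2e-08), DELTA-TIP had 548, 537 and 530 CPM on rac-GR24 and 1014, 917 and 862 CPM on DMSO, a log2 change of -0.79, and TIP2 fell by 0.42. TIP4;1 rose by 0.65, and GAMMA-TIP, at 0.01, did not pass. Of 17 auxin carriers, 8 fell (47.1%) and 4 rose (23.5%), with a median log2 change of -0.02. The efflux carriers PIN6, PIN7 and PIN3 changed by -1.39, -0.89 and -0.62 and the importer LAX2 by -0.99, whereas EIR1, the root carrier PIN2, had 35.5, 45.9 and 36.5 CPM on rac-GR24 and 13.5, 16.4 and 23.8 CPM on DMSO, a log2 change of 1.12.

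Nitrogen uptake and assimilation genes rose in part. NRT2:1 (AT1G08090), the high-affinity nitrate importer, had 2.98, 3.35 and 3.38 CPM on rac-GR24 and 0.718, 0.838 and 0.707 CPM on DMSO, a 4.29-fold rise (edgeR adjusted p = 1.7e-05). Of 17 genes of nitrate uptake and response, 6 rose and 1 fell, NRT1.8, which retrieves nitrate from the xylem, rising by 0.76 and the regulator BT1 falling by 0.50. Of 25 tested genes found by symbol in the nitrate and peptide family NPF, 8 rose (32.0%) and 4 fell (16.0%). Over all genes tested, the shares were 12.4% and 11.7%. The nitrate transceptor NRT1.1 rose by 0.50 and AT1G68570 (NPF3.1), a gibberellin carrier, by 0.67, while AT1G52190 (NPF1.2), which moves nitrate into the phloem, had 16.2, 16.8 and 18.4 CPM on rac-GR24, against 68.1, 61.9 and 65.4 CPM on DMSO, a log2 change of -1.93 ± 0.07. Of 17 genes of ammonium and amide metabolism, 8 rose and 3 fell. GSR2, the cytosolic glutamine synthetase GLN1;2, had 1234, 1216 and 1314 CPM on rac-GR24 and 731, 742 and 705 CPM on DMSO, a log2 change of 0.79. GDH2, a glutamate dehydrogenase, had 286, 280 and 292 CPM on rac-GR24 and 137, 126 and 148 CPM on DMSO, a log2 change of 1.06, while the level of its relative GDH3 on DMSO was 6.07 times that on rac-GR24, a fall that was larger, with a log2 change of -3.21, without rac-GR24 replicate 1.

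**Figure D3:**
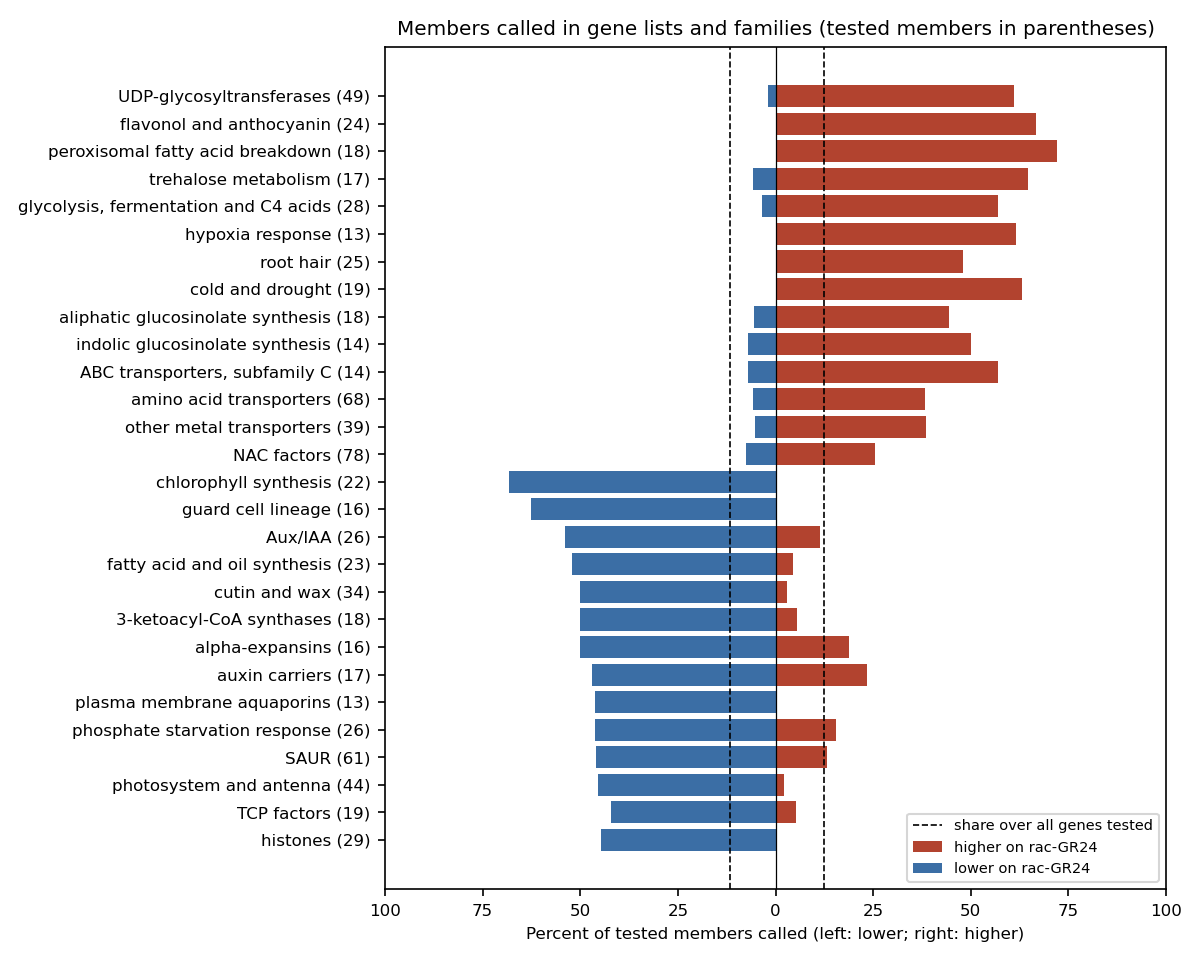
Percent of tested members called higher (bars to the right) or lower (bars to the left) on rac-GR24 in 28 gene lists and families, with the shares over all genes tested as dashed lines. The bars of UDP-glycosyltransferases, flavonoid enzymes, peroxisomal fatty acid breakdown and trehalose metabolism run right of 60%, and that of chlorophyll synthesis runs left of 60%.

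Most called genes of conjugation and secondary metabolism were higher. UDP-glycosyltransferases attach sugars to hormones, pigments and toxins, and 30 of 49 tested members (61.2%) rose while 1 fell, with a median log2 change of 0.40. UGT73B4 had 39.8, 43.8 and 41.2 CPM on rac-GR24, against 11.4, 19.5 and 17.1 CPM on DMSO, a log2 change of 1.38. UGT84A4 and UGT84A3, which glucosylate hydroxycinnamic acids, rose by 1.35 and 1.00. The one fall, of UGT74F2, a salicylic acid glucosyltransferase, was by 0.24, and it lost its call without rac-GR24 replicate 2 or 3 and without DMSO replicate 1 or 2, at -0.22 to -0.18. Glutathione transferases of the tau class rose in 8 (34.8%) and fell in 0 of 23. Those of the phi class rose in 5 (41.7%) and fell in 0 of 12, beside 12.4% higher and 11.7% lower over all genes tested. GSTU25 had 27.1, 36.7 and 32.9 CPM on rac-GR24, against 5.09, 8.83 and 10.2 CPM on DMSO, a log2 change of 1.99, and GSTU8 had 145, 160 and 179 CPM on rac-GR24 and 69.5, 85.3 and 71.3 CPM on DMSO, a 2.14-fold rise. The phi-class genes included GSTF12, which carries anthocyanins to the vacuole, at 2.21, and GSTF8 and GSTF10 at 0.55 and 0.48. Cytochrome P450 genes of the CYP71 family rose in 11 and fell in 1 of 34, with CYP71B19 at 1.54, CYP71A19 at 1.44 and CYP71B4 at 0.80, and with the single fall, CYP71B36, at -0.69. Methylesterases, some of which free hormones from their methyl esters, rose in 8 and fell in 1 of 18, MES16 at 1.22 and MES17 at -1.54.

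The flavonol and anthocyanin list had 16 of 24 tested genes higher and 0 lower. Within it the late anthocyanin enzyme genes DFR and LDOX had log2 changes of 2.27 and 2.37. TT7, which is not one of these late genes, was at 2.19. TT4, the chalcone synthase that opens the pathway, was at 0.76 and the flavonol synthase gene FLS1 at 0.71. These differences between genes were not tested. The pigment regulator MYB90 rose by 1.89, whereas EGL3, GL3, MYB12 and MYB111 did not pass, with log2 changes of -0.34, 0.45, 0.40 and -0.83. The entry F3H was matched by symbol, and the matched gene may not be the flavonoid gene of that name. The matched gene had 0.236, 0.0523 and 0.241 CPM on rac-GR24 and 0.0299, 0.0645 and 0.0884 CPM on DMSO and was not tested, so nothing is read from it for this pathway step.

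Glucosinolate synthesis, the route to the sulfur-rich defence compounds of the cabbage family, was more often higher than lower. In the aliphatic branch 8 of 18 genes rose and 1 fell, and in the indolic branch 7 of 14 rose and 1 fell. IMS2, also named MAM3, which lengthens the methionine side chain, had 132, 137 and 126 CPM on rac-GR24 and 66.4, 53.4 and 79.5 CPM on DMSO, a log2 change of 0.98. CYP83A1, of core formation, rose by 0.73, and the indolic enzymes CYP79B2, CYP79B3 and CYP81F4 by 0.51, 0.55 and 1.16. The 2 genes that fell encode activators of these routes. MYB29 had 11.7, 10.6 and 8.92 CPM on rac-GR24 and 26.1, 21.2 and 22.8 CPM on DMSO, a log2 change of -1.16, and MYB122 was at -0.88, with its call lost without rac-GR24 replicate 1 or 3 or without any 1 DMSO library, at -0.90 to -0.74. Of 15 genes of glucosinolate breakdown and transport 6 rose and 3 fell. PYK10, the abundant root myrosinase, had 4931, 4753 and 5084 CPM on rac-GR24, against 2740, 2795 and 3040 CPM on DMSO, a log2 change of 0.78, while ESM1 and ESP (AT1G54040), which steer the breakdown products, fell. ESM1 had 190, 205 and 184 CPM on rac-GR24, against 672, 517 and 504 CPM on DMSO, a log2 change of -1.55 ± 0.10 (edgeR adjusted p = 8.1e-08), and ESP was at -1.91.

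Lipid genes divided by role. The list of cutin and wax genes, which holds enzymes, transcription factors, transporters and lipid transfer proteins, rose in 1 and fell in 17 of 34. Its entries WIN1 and LCR were matched by symbol to AT1G80600 and AT1G27340, which may not be the cuticle genes of those names. HTH, a cuticle gene needed to keep organs from fusing, had 103, 102 and 96.5 CPM on rac-GR24, against 212, 194 and 181 CPM on DMSO, a log2 change of -0.96, and CYP86A4, CER2 and GPAT8 changed by -0.69, -0.59 and -0.49. CER4, which makes wax alcohols, was the one that rose, by 0.48, and it lost its call without rac-GR24 replicate 2 or 3 and without DMSO replicate 2 or 3, at 0.35 to 0.50. The 3-ketoacyl-CoA synthases that lengthen fatty acids rose in 1, KCS4, and fell in 9 of 18, KCS19, KCS8 and KCS16 at -0.80, -0.80 and -0.62, and the number that fell was 5 without rac-GR24 replicate 1, without DMSO replicate 1 or without DMSO replicate 2. Fatty acid and oil synthesis rose in 1 and fell in 12 of 23. BCCP2, a subunit of the plastid acetyl-CoA carboxylase, fell by 0.81, MOD1, the enoyl reductase, by 0.48, CAC2, another carboxylase subunit, by 0.33 and KASI by 0.30, while TAG1, which completes triacylglycerol, rose by 0.73.

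The opposite route, fatty acid breakdown in peroxisomes, rose in 13 and fell in 0 of 18, by log2 changes between 0.19 and 0.78. MLS, malate synthase, rose by 0.78, LACS7 by 0.48, CSY3 by 0.47, MFP2 by 0.38 and ACX4 by 0.36. Suberin genes were mixed, with 4 higher (23.5%) and 1 lower (5.88%) of 17, beside 12.4% and 11.7% over all genes tested. FACT, which makes caffeoyl esters of root waxes, had 37.3, 41.4 and 42.3 CPM on rac-GR24 and 9.19, 21.6 and 12.3 CPM on DMSO, a 2.83-fold rise, and CYP86A1, a root hydroxylase of suberin fatty acids, rose by 0.61 on the log2 scale. Lipid transfer proteins rose in 3 and fell in 6 of 13. LTP3 had 16.8, 17.6 and 22.5 CPM on rac-GR24 and 2.69, 1.805 and 5.39 CPM on DMSO, and its log2 change of 2.47 became 3.06 without DMSO replicate 3. LP1, the most abundant of those that fell by CPM, had 740, 704 and 729 CPM on rac-GR24 and 1068, 959 and 968 CPM on DMSO, a log2 change of -0.46.

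Genes of trehalose, sucrose and raffinose metabolism rose more often than they fell, while over all genes tested 12.4% rose and 11.7% fell. Of 17 trehalose genes, 11 rose (64.7%) and 1 fell (5.88%). The list covers the gene families around the sugar signal trehalose 6-phosphate, and not every member of the synthase family makes it. TPS9 had 86.2, 72.8 and 76.1 CPM on rac-GR24, against 28.0, 32.8 and 40.7 CPM on DMSO, a log2 change of 1.21, the phosphatase genes TPPD, TPPG and ATTPPA rose by 1.19, 0.68 and 0.52, and TPPE fell by 0.46. Sucrose cleavage and synthesis genes rose in 5 (26.3%) and fell in 3 (15.8%) of 19. Besides CWINV5, the cell-wall invertase ATBFRUCT1 had 145, 161 and 143 CPM on rac-GR24 and 60.1, 72.8 and 76.1 CPM on DMSO, a 2.15-fold rise, and the sucrose synthase genes SUS3 and SUS1 rose by 0.94 and 0.86 on the log2 scale, while ATBETAFRUCT4, a vacuolar invertase, and CINV2, a cytosolic one, fell by 0.42 and 0.27. In the raffinose and inositol group, 6 of 13 rose (46.2%) and 2 fell (15.4%). The shares that fell in the sucrose and raffinose lists were near the 11.7% over all genes tested. SIP2, of the raffinose family enzymes, had 333, 247 and 229 CPM on rac-GR24, against 81.3, 72.3 and 92.1 CPM on DMSO, a log2 change of 1.72, MIOX1, an inositol oxygenase, rose by 1.91 and GolS1, a galactinol synthase, by 0.94, and its relatives GolS2 and GolS3 fell by 0.94 and 0.76.

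Starch synthesis had 5 of 18 genes higher (27.8%) and 5 lower (27.8%), beside 12.4% and 11.7% over all genes tested. The number higher was 3 without rac-GR24 replicate 2 and 3 without DMSO replicate 2. APL3, an ADP-glucose pyrophosphorylase subunit of sink tissues, had 102, 93.3 and 105 CPM on rac-GR24, against 43.4, 43.0 and 34.7 CPM on DMSO, a 2.49-fold rise. Its relatives APL4 and APL1 fell by 0.73 and 0.30, and GPT2, a plastid glucose phosphate carrier, had 19.0, 10.2 and 10.1 CPM on rac-GR24 and 30.1, 28.8 and 24.6 CPM on DMSO, a log2 change of -1.08. Glycolysis, fermentation and C4 acid genes rose in 16 and fell in 1 of 28. PPC3, a phosphoenolpyruvate carboxylase, had 387, 407 and 418 CPM on rac-GR24 and 251, 194 and 208 CPM on DMSO, a log2 change of 0.89, and ADH1, alcohol dehydrogenase, had 35.0, 30.7 and 30.0 CPM on rac-GR24 and 9.01, 12.4 and 17.3 CPM on DMSO, a log2 change of 1.29. PPDK and PDC2 rose by 0.62 and 0.47, and FBA5 was the one that fell, by 0.73. The hypoxia list, which overlaps with these genes, had 8 of 13 higher and 0 lower, and 5 higher without rac-GR24 replicate 2. The cold and drought list had 12 of 19 higher and 0 lower, with RD20 at 1.55, KIN2 at 1.22 and COR47 at 0.62.

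The chlorophyll synthesis list rose in 0 and fell in 15 of 22 genes, with a median log2 change of -0.31. Its entry CAO was matched by symbol to AT2G47450, which may not be the synthesis gene of that name, and AT1G44446 (CH1) is also a member. PORB, the light-dependent enzyme that forms chlorophyllide, had 113, 108 and 105 CPM on rac-GR24, against 197, 202 and 210 CPM on DMSO, a log2 change of -0.90 ± 0.06 (edgeR adjusted p = 9.8e-08), and its relative PORA fell by 1.15. HEME1, HEME2 and CHLI2, which act earlier in the route, fell by 0.53, 0.48 and 0.49. Photosystem and antenna genes rose in 1 and fell in 20 of 44 (45.5%), by small log2 changes between -0.56 and -0.21, and this count was unsteady. The number that fell was 6 without rac-GR24 replicate 1, 10 without rac-GR24 replicate 2, 10 without DMSO replicate 1, 11 without DMSO replicate 2 and 36 without DMSO replicate 3. The antenna gene LHCB4.3 rose, with 81.9, 78.9 and 77.8 CPM on rac-GR24 and 41.3, 33.1 and 34.4 CPM on DMSO. Leaf mesophyll markers moved with these genes, with 37630, 37940 and 39750 summed CPM on rac-GR24, against 51130, 47380 and 44190 summed CPM on DMSO, and 4 of the 6 markers fell. Of these, 2 are antenna genes of the list itself, and the other 4, of Rubisco and its activase, summed to 21897, 21265 and 22198 CPM on rac-GR24, against 27312, 25672 and 23405 CPM on DMSO, with 3 lower. Their part in the result was not tested. In whole seedlings, fewer cells of a type and less RNA per cell cannot be told apart.

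Genes of auxin-driven growth and the cell wall had some of the largest falls. Small auxin-up RNA (SAUR) genes, which promote cell expansion, rose in 8 and fell in 28 of 61 tested members, with a median log2 change of -0.53, and 19 of the falls were at least 2-fold. AT4G34770 (SAUR1) had 0.284, 0.366 and 0 CPM on rac-GR24 and 2.87, 3.54 and 3.89 CPM on DMSO, a log2 change of -3.91, and AT2G18010 (SAUR10) had 0.543, 0.628 and 0.844 CPM on rac-GR24 and 4.73, 5.48 and 6.06 CPM on DMSO, a log2 change of -3.03 ± 0.23. Some members are close in sequence, so the share of reads given to each is uncertain. Those that rose included AT1G56150, AT2G36210 and AT3G12830, with log2 changes of 1.46, 1.43 and 1.06.

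Alpha-expansins, which loosen the wall, fell in 8 and rose in 3 of 16. EXPA8 had 12.1, 12.4 and 14.1 CPM on rac-GR24, against 71.1, 68.9 and 74.6 CPM on DMSO, a log2 change of -2.48 ± 0.08 (edgeR adjusted p = 9.8e-11). EXPA1 had 95.3, 103 and 114 CPM on rac-GR24, against 318, 305 and 383 CPM on DMSO, a log2 change of -1.69. EXPA11 and EXP3 changed by -1.72 and -1.55, and the groups of EXPA8 and EXPA1 were wide apart. The 3 that rose were EXPA18, 2.47-fold, and EXPA7 and EXPA17, with log2 changes of 1.00 and 0.92, and EXPA7 and EXPA18 are root hair expansins. Xyloglucan endotransglucosylases, which cut and rejoin wall xyloglucan, were split, with 7 of 28 higher and 9 lower. XTH6 had 184, 180 and 179 CPM on rac-GR24, against 57.5, 55.0 and 43.3 CPM on DMSO, a 3.49-fold rise, and XTH14 had 43.6, 53.0 and 48.1 CPM on rac-GR24 and 16.4, 19.2 and 20.8 CPM on DMSO, a log2 change of 1.36. XTH19 had 33.6, 38.3 and 33.7 CPM on rac-GR24 and 116, 96.8 and 102 CPM on DMSO, a log2 change of -1.57, and XTH4 and XTH16 changed by -0.81 and -0.48.

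Genes of ethylene and gibberellin metabolism also moved in opposed directions within their families. Of 10 ethylene synthesis genes, 4 fell (40.0%) and 3 rose (30.0%), beside 11.7% and 12.4% over all genes tested. ACS8 and ACS5, like ACS4, fell, by 1.98 and 1.68, and EFE, an ACC oxidase, by 0.64. ACS7 had 2.198, 3.45 and 3.08 CPM on rac-GR24 and 0.838, 0.902 and 0.973 CPM on DMSO, a log2 change of 1.67, and AT2G19590 (ACO1) rose by 0.57. ACS11, ACS2 and ACS6 did not pass, at -0.59, -0.03 and -0.03. Of 11 gibberellin dioxygenases, GA2OX2, which inactivates active gibberellins, rose by 1.75 and GA2OX6 by 0.41, the last losing its call without rac-GR24 replicate 2 or 3 or DMSO replicate 3, at 0.31 to 0.38, while GA2OX8, of the class that acts on precursors like GA2OX7, fell by 2.25 and the synthesis gene GA20OX2 fell by 0.88. In the GASA family of small gibberellin-regulated proteins, GASA6 had 41.5, 37.1 and 45.3 CPM on rac-GR24, against 167, 146 and 174 CPM on DMSO, a log2 change of -1.97, whereas GASA1 had 365, 405 and 369 CPM on rac-GR24 and 180, 187 and 151 CPM on DMSO, a log2 change of 1.14. AT5G14920 and GASA4 fell by 2.22 and 0.53, and GASA5 rose by 1.87.

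The guard cell lineage list, of genes that start and space stomata, had 0 of 16 higher and 10 lower, with a median log2 change of -0.58. TMM, a receptor-like protein of stomatal spacing, had 12.4, 11.4 and 11.5 CPM on rac-GR24, against 29.1, 28.6 and 26.0 CPM on DMSO, a log2 change of -1.24. EPF2, a spacing peptide of early precursors, had 1.39, 1.41 and 1.99 CPM on rac-GR24 and 4.43, 5.12 and 4.91 CPM on DMSO, a log2 change of -1.60. SDD1, STOMAGEN and SCRM2 fell by 1.05, 0.77 and 0.67, while MUTE and FMA, which act late in the lineage, did not pass, at -0.50 and 0.13. Of 24 potassium channel and carrier genes 4 rose (16.7%) and 5 fell (20.8%), beside 12.4% and 11.7% over all genes tested. Of those active in mature guard cells, KAT2 fell by 1.46 and KAT3 rose by 0.57. Cell division genes moved with the guard cell lineage list, with 0 of 39 cyclins higher and 15 lower (38.5%). Of 29 histone genes 0 were higher and 13 lower (44.8%), or 8 lower without rac-GR24 replicate 1. The part of dividing cells in the result was not tested.

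Root hair genes were higher or did not pass. Of 25 tested members 12 rose and 0 fell, with a median log2 change of 0.70. RHD2, the oxidase that drives root hair growth, had 35.8, 38.7 and 36.6 CPM on rac-GR24, against 17.2, 21.3 and 19.6 CPM on DMSO, a log2 change of 0.94. XTH26, XTH13 and RHD6, a root hair bHLH factor, rose by 1.96, 1.77 and 0.86, while GL2 and CPC, which set cell fate, did not pass, at -0.19 and -0.16. Summed root hair markers lay between 56.6 and 65.8 CPM on rac-GR24 and between 29.2 and 33.7 CPM on DMSO, and 5 of the 7 markers rose. These 7 markers belong to the list and are no separate measure. Endodermis markers lay between 70.2 and 71.2 CPM on rac-GR24 and between 72.4 and 74.4 CPM on DMSO, with 0 of 7 past the test.

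**Figure D4:**
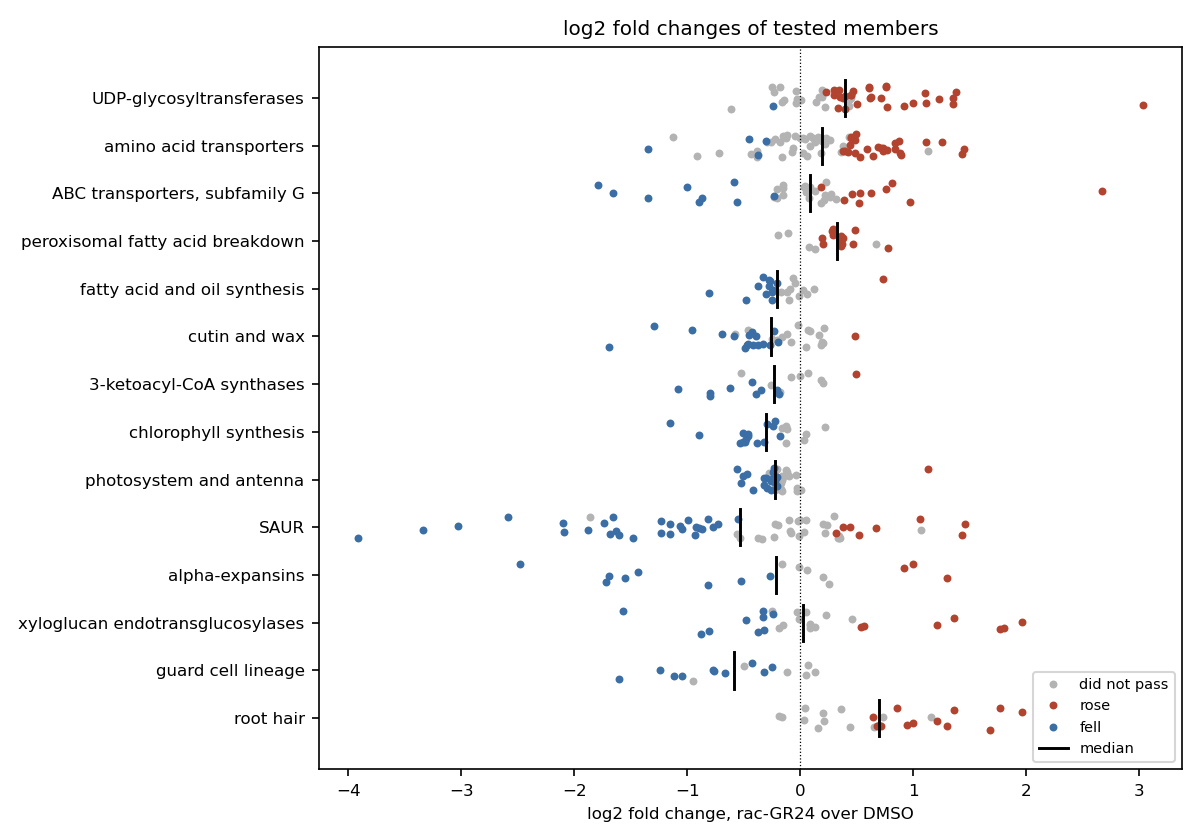
log2 fold change, rac-GR24 over DMSO, of every tested member of 14 lists and families, coloured by whether it rose, fell or did not pass, with the list median as a black line. The peroxisomal genes lie to the right and the guard cell lineage genes mostly to the left, while subfamily G transporters, xyloglucan enzymes and alpha-expansins spread to both sides.

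Marker lists of other tissues also differed between the groups. Summed seed storage markers were 20.9, 7.30 and 56.2 CPM on rac-GR24, against 3.23 to 5.42 CPM on DMSO, so the rac-GR24 libraries were higher and far from even. CRA1, a cruciferin, had 7.85, 2.51 and 25.7 CPM on rac-GR24 and 1.92, 0.645 and 0.928 CPM on DMSO. Its log2 change was 3.36, or 2.17 with rac-GR24 replicate 3 left out, and that of CRU3 was 2.54, or 1.19. Both lost their calls with limma-voom, at 2.84 and 1.89. The part of the seed storage transcripts in the rises of LTP4, LTP3 and the peroxisomal genes was not tested. Shoot meristem markers lay between 15.5 and 17.5 CPM on rac-GR24 and between 22.8 and 23.4 CPM on DMSO, with WUS at 0 in every library. Xylem markers lay between 113 and 117 CPM on rac-GR24 and between 129 and 144 CPM on DMSO, while phloem markers lay between 257 and 264 CPM on rac-GR24 and between 238 and 265 CPM on DMSO. Root cap markers lay between 3.02 and 4.82 CPM on rac-GR24 and between 1.68 and 2.67 CPM on DMSO, with 0 of 3 past the test. Pollen markers were at or below 0.261 CPM on rac-GR24 and 0.18 CPM on DMSO, with VGD1 at 0.

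**Figure D5:**
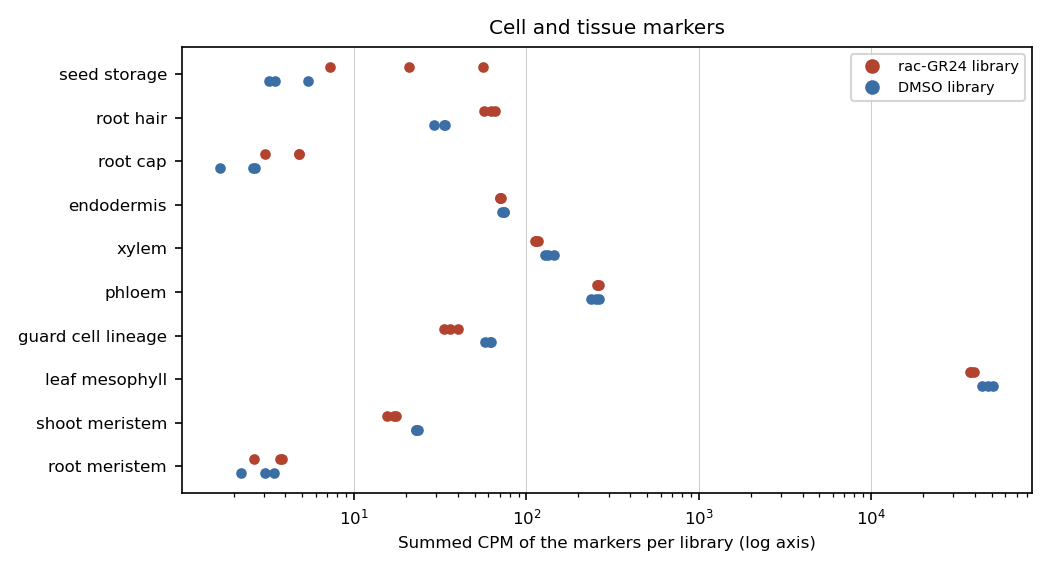
Summed CPM of each marker list per library on a log axis, 3 points per group. Seed storage, root hair and root cap points are higher on rac-GR24, those of guard cell lineage, leaf mesophyll, shoot meristem and xylem are lower, endodermis points are slightly lower, and phloem and root meristem points overlap.

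Among the most abundant transcripts per length, photosynthesis genes were lower, by small changes, several of which lost their calls when 1 library was left out, and a metallothionein and PYK10 higher on rac-GR24. In FPKM, which is CPM per kilobase of exon, CAB1, an antenna gene, averaged 10850 on rac-GR24 and 15030 on DMSO, a log2 change of -0.47. RBCS3B, a small subunit of Rubisco, averaged 2518 FPKM on rac-GR24 and 3454 FPKM on DMSO, a log2 change of -0.46. The near-identical copies CAB2 and CAB3 averaged 4458 and 2168 FPKM on rac-GR24 and 5469 and 2903 FPKM on DMSO, and reads could be split among the copies. MT2B, a metallothionein, averaged 2790 FPKM on rac-GR24 and 2072 FPKM on DMSO, a log2 change of 0.43, and PYK10 averaged 2726 FPKM on rac-GR24 and 1583 FPKM on DMSO. The fall of CAB2, a log2 change of -0.29, lost its call without rac-GR24 replicate 1, at -0.27. RBCS1A averaged 8009 FPKM on rac-GR24 and 9461 FPKM on DMSO, and its log2 change of -0.24 kept its call without DMSO replicate 3 and lost it without any other library, at -0.25 to -0.18. LHCB5, at -0.26, lost its call without rac-GR24 replicate 1 or 2 or DMSO replicate 1 or 2, at -0.25 to -0.21. LHCB3, at -0.21, lost it without any library other than DMSO replicate 3, at -0.26 to -0.18. MIR4228, annotated as a microRNA gene of 158 bases, was at -0.41 and lost its call with DESeq2's test and without rac-GR24 replicate 1 or 3 or DMSO replicate 1 or 2, at -0.45 to -0.23. Its groups overlapped, with 346, 575 and 486 CPM on rac-GR24 and 715, 592 and 563 CPM on DMSO. Whether its reads come from the microRNA was not tested.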

How the data were processed

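The authors deposited whole-number read counts per gene in a table of exon positions and lengths in the format of featureCounts, per the file headers. Tools in the submitters' processing notes are fastp 0.23.1, cutadapt 3.5, HISAT2 2.0.5, SAMtools 1.13, featureCounts 2.0.1 and DESeq2 1.32.0, with the TAIR10 build. Libraries were paired-end, and 69.0% to 71.8% of counts between 1 and 20 were even. The sources used here do not give the strand setting of the counting, and a gene and its antisense partner cannot be told apart. The table used here holds 4597 genes of chromosome 4, 0 mitochondrial and 0 plastid genes and ends in 1 incomplete line, which was dropped. A further 1245 chromosome 4 genes of the RefSeq gene table were not analysed here.

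Groups came from the sample labels. filterByExpr removed low genes (at least 10 counts, total of at least 15), and counts were scaled by TMM (factors 0.974 to 1.018) and tested with edgeR 4.0.16 in R 4.3.3 (quasi-likelihood, Benjamini-Hochberg). The SE was derived from the log2 change and the F statistic. CPM used the TMM-scaled library sizes, and FPKM is CPM over exon length. Replicate pairs of a group differed by more than sampling noise (chi-square over degrees of freedom 8.79 to 19.03). The fit was tested on simulated data. Alternatives were DESeq2's size factors, upper-quartile scaling, total counts only, DESeq2 1.42.0, limma 3.58.1 (voom), no filter, a filter of 1 CPM in 3 libraries, halved counts, the replicate number as a block, and each library left out in turn.

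Gene names came from the table and from the RefSeq gene table. Families were found by patterns on gene symbols and their synonyms. Only 10744 of the 32224 genes had a symbol, so family counts leave out members not found this way. Of 1098 list entries 1024 matched a gene, 28 were repeats and 4 were dropped by name. DLK2 is not reported here. The members and lists were chosen with earlier results of these data known. The text draws its names from the 15 largest rises and falls by fold among called genes with a mean of at least 1 CPM in the higher group and groups that did not overlap, the 10 genes of highest FPKM, up to 4 members per direction of a list with the smallest p (every member of lists of at most 12 or of pathways taken step by step), up to 8 factors per direction under the same conditions, KUF1, BBX20 and BRC1. Other names were picked after seeing their values.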

Additional observations from a re-analysis of the deposited data

How the results depend on the processing

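The counts of genes that rose or fell stayed within 1.5 times their size under every alternative run, from 2042 to 2778 higher and 1867 to 2594 lower. Upper-quartile scaling gave 2504 higher and 2594 lower, and scaling by total counts alone, added after seeing the data, gave 2698 and 2272 with a median log2 change of 0.012. Same-numbered libraries showed no sign of pairing, with correlations of their deviations of 0.086, -0.034 and -0.058, against -0.07 to 0.111 for different numbers. With 3 libraries per group this check cannot exclude pairing. A replicate block gave 2471 genes higher and 2241 lower, with photosystem and antenna genes lower in 9. It also lost the calls of 9 named genes, among them CAB2, RBCS1A, LHCB5 and LHCB3. Of 376 named genes, 332 stayed on the same side of the threshold and kept the sign of their change in every alternative that tested them. With the CPM filter 361 were tested, and 372 with halved counts. Of genes that never passed, leaving out 1 library in turn gave log2 changes from -0.63 to 0.28 for ACS2, -0.37 to 0.37 for DTX1, -0.02 to 0.04 for GAMMA-TIP and -0.09 to 0.02 for ACS6, each crossing 0. The seed storage list had 7 higher, 3 with voom, 11 with no filter and 4 with the CPM filter. Low counts and 3 libraries per group limit genes near 1 CPM most.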
